A study of Schmidtea mediterranea with 24 samples.

Results

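This comparison set mmp-1+ cells of planarian tail fragments at 48 h after amputation against mmp-1+ cells of tail fragments at 6 h. It used 6 of the 24 samples of the series, 3 libraries at each time, chosen by their labels alone: the sorted population, the tissue and the time. The series examined the surroundings of stem cells in the flatworm Schmidtea mediterranea with 18 RNA-seq libraries of sorted cells, 4 tissue sections read out on barcoded beads (Slide-seqV2) and a pair of single-cell samples not analysed here. Per the labels, the sorted-cell groups were mmp-1+ and mmp-1- cells of tail fragments at 48 h, of tail fragments at 6 h and of intact worms, with 3 replicates of 100 worms each. All of these animals were wildtype and had been starved for 11 days, and 1000 cells were sorted for each library. A library therefore averages over pooled worms, and a replicate number does not name an animal. The mmp-1+ gate was set on the fluorescence of probes that bind mmp-1 RNA in fixed cells. Nothing in the files pairs gene identifiers with names, so the level of mmp-1 in these libraries was not checked here, and the genes below carry identifiers without names or functions.

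Planarians rebuild missing body parts from a pool of dividing stem cells called neoblasts, which lie among differentiated cells in the tissue between gut and skin. After amputation the wound closes within hours, a set of injury genes switches on in several cell types, and over the following days the fragment makes new tissue and reshapes the old. A tail fragment has lost the head, the brain and the pharynx region and must replace them. mmp-1 encodes a matrix metalloproteinase, one of a family of secreted enzymes that cut proteins of the extracellular matrix, the material between cells. The comparison of 48 h with 6 h asked which transcripts of mmp-1+ cells changed between the early and the later time, with a fragment of the same kind on both sides.

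The 3 libraries at 48 h held 54364466 to 62556717 counts on genes and the 3 at 6 h held 52969393 to 62343394. At least 1 count was present for 33506 to 33651 of 36035 genes at 48 h and for 33455 to 33571 at 6 h. The 10 most abundant genes took 31.4% to 34.5% of the counts at 48 h and 34.8% to 36.8% at 6 h. Reads in the multimapping category made up 7.79% to 8.57% at 48 h and 8.18% to 9.21% at 6 h, so genes with near-identical copies are uncertain. The sort could be checked without gene names through 406 genes (1.29% of those tested) that were called higher, by 2-fold or more, in mmp-1+ than in mmp-1- cells of intact worms. In the tail fragments, whose levels did not enter that ratio, these genes took 11.3% to 15.6% of the counts of the mmp-1+ libraries at 48 h and 15.7% to 18.2% at 6 h. In the mmp-1- libraries they took 0.779% to 1.14% at 48 h and 1.12% to 1.76% at 6 h. The first principal component of the 6 mmp-1+ libraries held 40.1% of the variance. It placed the 48 h libraries at -45.9, -37.3 and -43.2 and the 6 h libraries at 39.1, 48.4 and 39.0, so this component separated the times. The second component, with 19.1% of the variance, separated replicates of a time: the 48 h libraries stood at 15.2, -2.41 and -19.1 on it and the 6 h libraries at 44.9, -49.1 and 10.5. The 6 h replicates 1 and 2 were thus about as far apart there as the times were on the first component.

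Between 48 h and 6 h, mmp-1+ cells changed in both directions, and the steepest changes were falls. edgeR's quasi-likelihood test called 3027 of 31435 genes at a Benjamini-Hochberg adjusted p under 0.05 (9.63%). Of these, 1432 were higher at 48 h (4.56% of the genes tested) and 1595 were lower (5.07%). Most changes were small: the median log2 fold change was 0.55 among the genes called higher and -0.61 among those called lower. At least 2-fold changes numbered 290 rises (0.923%) and 349 falls (1.11%). At 4-fold or more there were 63 rises and 129 falls, at 8-fold or more 15 and 65, and at 16-fold or more 5 and 22. Among the calls the log2 fold change reached 6.27 upward and -7.95 downward.

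**Figure D1:**
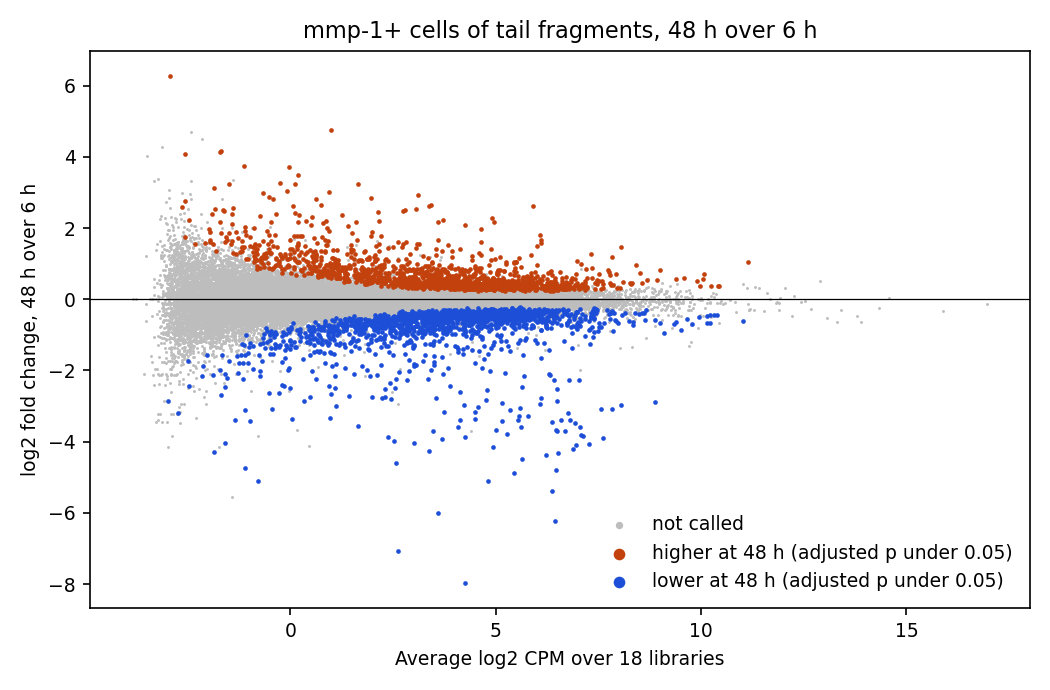
Log2 fold change of each of the 31435 genes tested in mmp-1+ cells, 48 h over 6 h, against its average log2 CPM over all 18 sorted-cell libraries. Orange points are the 1432 genes called higher at 48 h, blue points the 1595 called lower and grey points the genes not called; the falls reach farther from 0 than the rises among genes of middle abundance.

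Every 48 h library lay above every 6 h library for 1417 of the 1432 genes called higher, and below it for 1586 of the 1595 called lower. Without regard to calls, such separation was present upward for 13.4% of the genes tested and downward for 14.4%. The genes called higher took 6.33%, 5.98% and 6.38% of the gene counts in the 48 h libraries, against 3.73%, 3.98% and 3.94% in the 6 h libraries. The genes called lower took 4.58%, 4.51% and 4.88% at 48 h, against 6.63%, 7.12% and 6.82% at 6 h. The 349 falls of at least 2-fold held 0.246%, 0.270% and 0.251% of the counts at 48 h, against 1.03%, 1.24% and 0.947% at 6 h. Beside these shares of counts, the genes called higher were 4.56% and those called lower 5.07% of the genes tested. Counts are not divided by transcript length, so they are not shares of RNA molecules. With library sizes scaled by total counts alone, the median log2 fold change of all genes tested was 0.12 in place of -0.01, and 2580 genes were called higher and 808 lower. All directions below are relative to the TMM scaling, which centres the genes near 0. Leaving out 1 library left 1870 to 2296 calls, with the fewest without 48 h replicate 1 and 1969 and 1993 without 48 h replicate 3 or 6 h replicate 3.

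The 8 highest log2 fold changes among non-overlapping genes no lower than 4 in average log2 CPM were led by SMED30034953. It stood at 174, 312 and 209 CPM (read counts set against TMM-scaled library size) in the 48 h libraries, against 42.0, 37.4 and 34.0 CPM in the 6 h libraries. The lowest 48 h library lay far above the highest 6 h library, and the log2 fold change was 2.62 (SE 0.17, adjusted p 1.08e-08), with SE the standard error. SMED30007001 stood at 57.8, 109 and 81.2 CPM at 48 h, against 15.5, 19.1 and 16.4 CPM at 6 h, a log2 fold change of 2.28 (SE 0.16, adjusted p 3.15e-08). In both genes replicate 2 was the highest of the 48 h libraries, while the 6 h libraries were close to each other. Their levels in intact mmp-1+ cells were near those at 6 h, at 22.5 to 30.5 CPM for SMED30034953 and 18.2 to 20.9 CPM for SMED30007001. SMED30010453 followed the same order of levels with less spread, at 43.5, 43.9 and 46.1 CPM at 48 h, against 12.8, 15.3 and 15.3 CPM at 6 h, with 11.3 to 13.2 CPM in intact worms. Its log2 fold change was 1.62 (SE 0.12, adjusted p 4.12e-08), and its 48 h libraries lay close together.

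A second group of named rises was scarce in intact worms, present at 6 h and higher again at 48 h. SMED30002813 stood at 98.8, 76.8 and 57.3 CPM at 48 h, against 15.8, 20.4 and 15.2 CPM at 6 h, and at 1.92 to 2.86 CPM in intact mmp-1+ cells. The groups did not overlap, and the change at 48 h over 6 h was 2.18 (SE 0.18, adjusted p 1.56e-07) on the log2 scale. SMED30030464 stood at 172, 148 and 114 CPM at 48 h, against 55.2, 31.2 and 37.8 CPM at 6 h, with 5.06 to 7.42 CPM in intact worms, a log2 fold change of 1.81 (SE 0.34, adjusted p 0.00176). SMED30003676 stood at 107, 213 and 115 CPM at 48 h, against 52.0, 30.2 and 54.6 CPM at 6 h, with 2.79 to 5.70 CPM in intact worms, a log2 fold change of 1.67 (SE 0.29, adjusted p 6.42e-04). In SMED30003676 replicate 2 was the highest library at 48 h and the lowest at 6 h, yet the times stayed apart. SMED30028552 stood at 28.4, 64.4 and 32.0 CPM at 48 h, against 9.86, 7.78 and 11.9 CPM at 6 h, with 0.542 to 1.06 CPM in intact worms, a log2 fold change of 2.08 (SE 0.28, adjusted p 7.22e-05). Replicate 2 was again the high library at 48 h. Intact worms are whole animals, so their levels are given as a setting for the tail fragments and were not tested here.

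SMED30009662 had its highest level in intact mmp-1+ cells, at 27.1 to 43.6 CPM. It stood at 8.16, 8.03 and 3.61 CPM at 48 h, against 1.86, 1.88 and 1.26 CPM at 6 h. The 48 h libraries lay above the 6 h libraries but far below the intact ones, and replicate 3 was the lowest of the 48 h libraries. The log2 fold change was 1.99 (SE 0.52, adjusted p 0.0189). This call was lost in 6 of the 15 alternatives, among them limma with voom and the removal of any 1 of the 6 h libraries or of 48 h replicate 1 or 2, with log2 fold changes of 1.80 to 2.28 throughout.

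**Figure D2:**
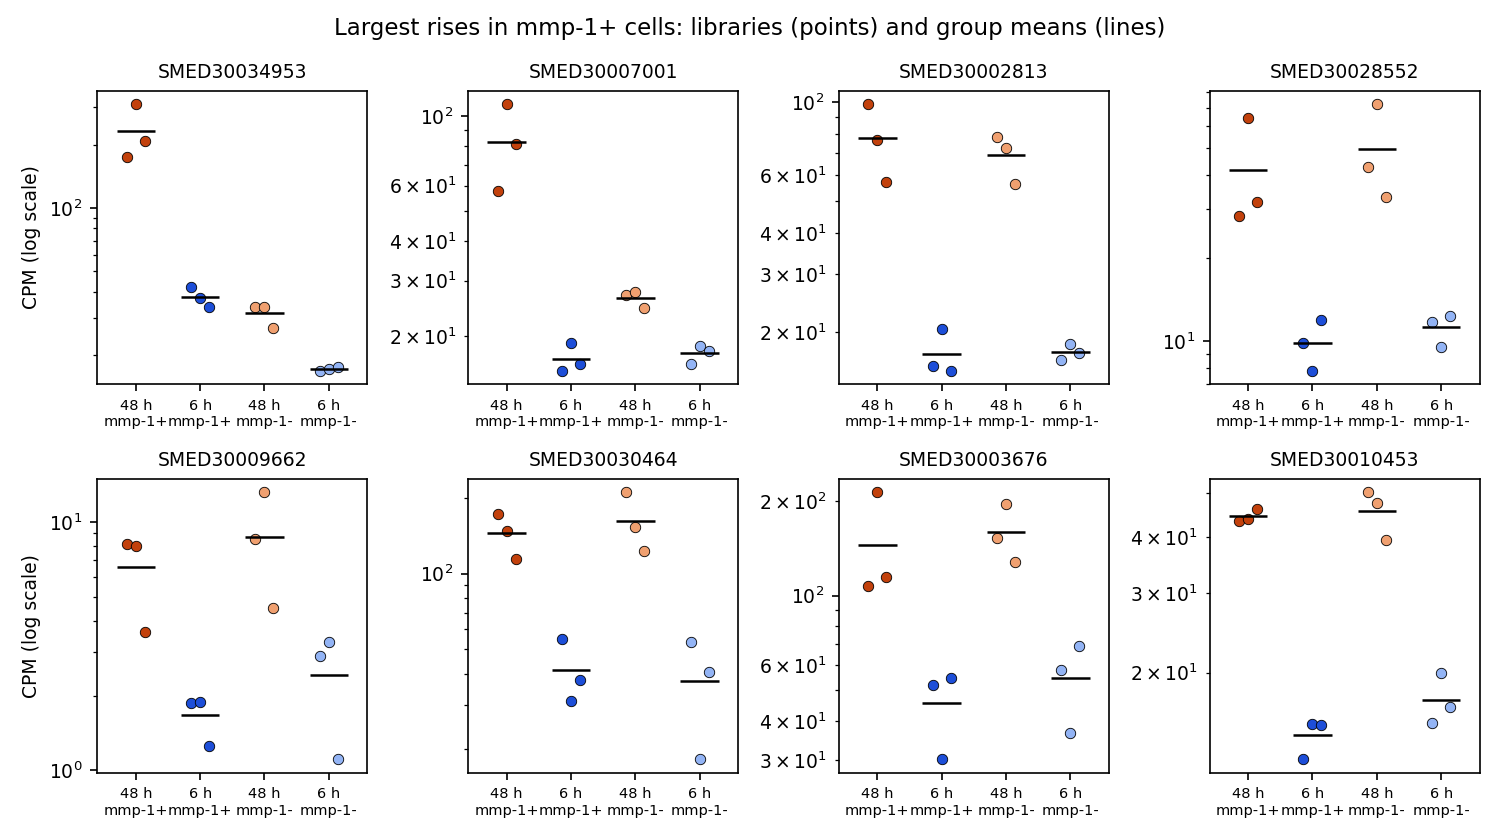
CPM (log scale) of the 8 named genes with the highest log2 fold changes in mmp-1+ cells, with 1 point for each of 3 libraries and a line at the group mean, for 48 h and 6 h in mmp-1+ cells and then in mmp-1- cells. Among mmp-1+ libraries the points at 48 h lie above those at 6 h in all 8 panels, and in SMED30034953 and SMED30007001 the gap is wider in mmp-1+ than in mmp-1- cells.

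The 8 lowest log2 fold changes under the same limits were steeper than the 8 highest. SMED30014570 stood at 2.88, 3.68 and 3.15 CPM in the 48 h libraries, against 185, 111 and 111 CPM in the 6 h libraries. The 48 h libraries were all low and close together, and the log2 fold change was -5.39 (SE 0.71, adjusted p 4.50e-05), a 41.9-fold lower level. SMED30026916 stood at 3.54, 8.30 and 4.52 CPM at 48 h, against 97.4, 159 and 84.0 CPM at 6 h, a log2 fold change of -4.38 (SE 0.48, adjusted p 5.37e-06). Their levels in intact mmp-1+ cells overlapped those at 6 h, at 79.0 to 208 CPM for SMED30014570 and 103 to 135 CPM for SMED30026916. SMED30033881 stood at 5.81, 1.38 and 6.72 CPM at 48 h, against 77.2, 125 and 109 CPM at 6 h, a log2 fold change of -4.47 (SE 0.96, adjusted p 0.00458). SMED30013245 stood at 8.16, 1.67 and 3.08 CPM at 48 h, against 206, 73.5 and 80.4 CPM at 6 h, a log2 fold change of -4.79 (SE 1.09, adjusted p 0.00716). In both of these the 48 h libraries differed several-fold among themselves, but the highest 48 h library was still far below the lowest 6 h library. SMED30035615 stood at 2.12, 1.15 and 2.18 CPM at 48 h, against 37.6, 89.0 and 36.7 CPM at 6 h, a log2 fold change of -4.89 (SE 1.23, adjusted p 0.0142). This call was lost without any 1 of the 48 h libraries, with log2 fold changes between -5.11 and -4.34 over all alternatives.

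In a pair of the steepest falls a single 48 h library carried nearly all that was left. SMED30022886 stood at 0.224, 6.80 and 0.133 CPM at 48 h, against 159.8, 241 and 121 CPM at 6 h. SMED30020266 stood at 0.0862, 4.47 and 0.0949 CPM at 48 h, against 47.9, 69.7 and 34.2 CPM at 6 h. In both, 48 h replicate 2 was far higher than replicates 1 and 3, and 6 h replicate 2 was the highest 6 h library. The log2 fold changes were -6.23 (SE 1.53, adjusted p 0.0123) for SMED30022886 and -5.09 (SE 1.33, adjusted p 0.0176) for SMED30020266. They were -9.89 and -9.10 without 48 h replicate 2, and both calls were lost without 48 h replicate 1, without 48 h replicate 3 and in limma with voom. Replicate 2 was the highest of the 48 h libraries for 40 of the 65 falls of at least 8-fold, and replicate 3 was the lowest for 36. At 6 h replicate 2 was the highest for 38 of the 65 and replicate 3 the lowest for 34. The same libraries thus stood high or low for many of these genes together, and what lay behind it was not tested.

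**Figure D3:**
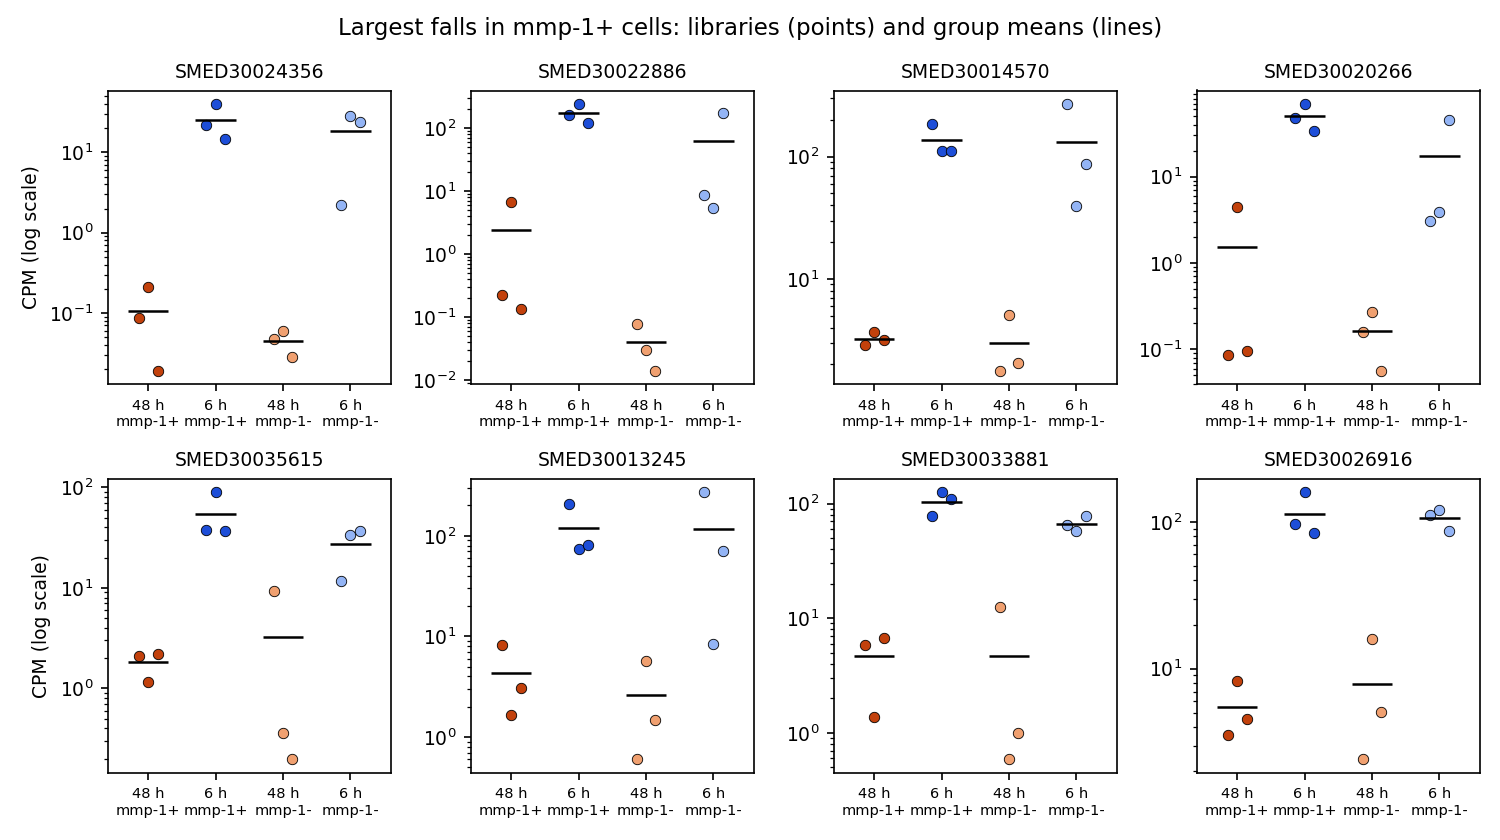
CPM (log scale) of the 8 named genes with the lowest log2 fold changes in mmp-1+ cells, with 1 point for each of 3 libraries and a line at the group mean, for 48 h and 6 h in mmp-1+ cells and then in mmp-1- cells. Among mmp-1+ libraries every 48 h point lies below every 6 h point, and in SMED30022886 and SMED30020266 a single 48 h point stands well above the rest of its group.

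Few genes crossed from near absence to presence or back. SMED30026864 was the single called gene with every 6 h library under 0.5 CPM and every 48 h library over 2 CPM. It stood at 4.17, 6.90 and 3.66 CPM at 48 h, against 0.0409, 0.0855 and 0.405 CPM at 6 h. The 3 libraries of a time held 765 counts together at 48 h and 26 at 6 h, and the log2 fold change was 4.76 (SE 0.60, adjusted p 2.71e-05). In the other direction 3 genes met the same limits. SMED30024356 stood at 0.0862, 0.209 and 0.0190 CPM at 48 h, against 21.8, 40.3 and 14.7 CPM at 6 h, with 16 and 3678 counts in all. SMED30002225 stood at 0.103, 0.188 and 0 CPM at 48 h, against 13.0, 16.1 and 9.84 CPM at 6 h, with 15 and 1872 counts. SMED30018904 stood at 0.190, 0.314 and 0.342 CPM at 48 h, against 3.95, 2.27 and 2.21 CPM at 6 h, with 44 and 408 counts. All 3 were close to absent from mmp-1+ cells at 48 h. The log2 fold changes were -7.95 (SE 1.50, adjusted p 0.00164) for SMED30024356, -7.06 (SE 0.98, adjusted p 8.04e-05) for SMED30002225 and -3.32 (SE 0.88, adjusted p 0.0192) for SMED30018904. limma with voom called none of these 3 falls, and that of SMED30018904 was also lost without any 1 of the 48 h libraries or 6 h replicate 1.

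Among the called genes, the largest shifts in mean CPM were mostly modest folds in abundant transcripts. SMED30009076 stood at 3442, 3881 and 3238 CPM at 48 h, against 1773, 1488 and 1832 CPM at 6 h, a log2 fold change of 1.05 (SE 0.16, adjusted p 2.45e-04). SMED30005835 stood at 1809, 1941 and 1285 CPM at 48 h, against 1029.6, 1153 and 905 CPM at 6 h, a log2 fold change of 0.71 (SE 0.15, adjusted p 0.00422). The libraries of the times did not overlap in either gene. SMED30004124 stood at 1298, 1564 and 1467 CPM at 48 h, against 997, 991 and 959 CPM at 6 h, a log2 fold change of 0.55 (SE 0.0970, adjusted p 8.15e-04). SMED30012212 stood at 1935, 1854 and 1626 CPM at 48 h, against 1501, 1232 and 1413 CPM at 6 h, a log2 fold change of 0.39 (SE 0.11, adjusted p 0.0330). The call of SMED30012212 was lost without 48 h replicate 1 or 2 or without 6 h replicate 2 or 3. SMED30005835 stood apart from the other 3 in intact mmp-1+ cells, where it held only 354 to 386 CPM.

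Of the 4 called genes with the largest decreases in mean CPM, 3 changed by less than 2-fold and 1 by far more. SMED30021545 stood at 1489, 1568 and 1441 CPM at 48 h, against 2395, 2290.3 and 2145 CPM at 6 h, a log2 fold change of -0.60 (SE 0.13, adjusted p 0.00479). SMED30020317 stood at 870.1, 1043 and 1260.2 CPM at 48 h, against 1794, 1462 and 1831 CPM at 6 h, a log2 fold change of -0.68 (SE 0.14, adjusted p 0.00371). SMED30002262 stood at 652, 791 and 964 CPM at 48 h, against 1488, 1071 and 1366 CPM at 6 h, a log2 fold change of -0.70 (SE 0.16, adjusted p 0.00649), a call lost without 48 h replicate 1 at an adjusted p of 0.0508. In both SMED30020317 and SMED30002262 replicate 3 was the highest and replicate 1 the lowest of the 48 h libraries. Their levels in intact mmp-1+ cells were lower than at either time, at 701 to 751 CPM and 428 to 481 CPM, whereas SMED30021545 stood at 2285 to 2758 CPM there. SMED30018686 stood at 124, 95.9 and 24.1 CPM at 48 h, against 574, 824 and 396 CPM at 6 h, a log2 fold change of -2.88 (SE 0.44, adjusted p 2.32e-04). Its 48 h replicate 3 was the lowest, and its intact level of 491 to 691 CPM was near that at 6 h.

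As a group, the falls of at least 8-fold were genes that had been plentiful and were no longer so. Their median level was 43.8 CPM in intact mmp-1+ cells, 49.6 CPM at 6 h and 3.44 CPM at 48 h (65 genes). For the 349 falls of at least 2-fold the medians were 6.22 CPM in intact worms, 7.71 CPM at 6 h and 2.16 CPM at 48 h. The 290 rises of at least 2-fold were scarcer genes, with medians of 0.972 CPM in intact worms, 0.739 CPM at 6 h and 2.08 CPM at 48 h. Over all genes tested the medians were 2.74, 2.62 and 2.61 CPM at the same 3 stages. The 48 h and 6 h levels of these sets follow from how they were chosen. The intact levels did not enter the fold change but are not free of the choice, since scarce genes were called less often.

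Gene classes drawn from the intact worms showed where the calls fell. Of the 406 genes that exceeded mmp-1- cells by 2-fold or more in the intact sort, 124 were lower at 48 h and 10 were higher, or 30.5% and 2.46%, beside 5.07% and 4.56% of all genes tested. Their median log2 fold change was -0.47. Of all 1527 genes called higher in that sort (4.86% of those tested), 327 were lower (21.4%) and 56 were higher (3.67%), with a median of -0.19. In both classes the share called lower was above that of all genes tested and the share called higher was below it. The 275 genes called lower in the intact sort (0.875%) had 43 higher (15.6%) and 20 lower (7.27%), with a median of 0.04. Both of these shares were above those of all genes tested, and rises outnumbered falls. The median SE was 0.144 among these 275 genes, 0.124 among the 1527, 0.221 among the 406 and 0.192 over all genes tested. A class with a smaller SE can have more calls in both directions. Among the 29633 genes not called in that sort, 1333 were higher and 1248 lower, and the median was -0.0028.

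Falls outnumbered rises in both sort classes under each alternative for which the classes were counted, but the counts moved. Those were the other scalings, no filter, the fits of fewer libraries and the removal of 1 mmp-1+ library. The classes were not counted under DESeq2, limma with voom or a replicate term. Without 48 h replicate 1, 48 h replicate 3 or 6 h replicate 1, the 124 falls were 55, 72 and 74, and the 327 falls were 147, 203 and 199. Without 48 h replicate 2 or 6 h replicate 3, the 10 rises were 3 and 6, and the 56 rises were 25 and 30. Fitted on the 6 compared libraries alone, the class of 406 had 198 falls and 20 rises, and on the 9 mmp-1+ libraries alone it had 124 falls and 11 rises. With total-count scaling the class of 1527 had 208 falls and 108 rises. The 20 falls of the 275 genes were 8 without 48 h replicate 2 and 10 without 48 h replicate 3. The share of counts in the 406 genes was 11.3%, 15.6% and 12.4% in the 48 h libraries, against 18.2%, 15.7% and 16.5% in the 6 h libraries. The 48 h share of replicate 2 reached almost to the lowest 6 h share, and the groups did not overlap. In intact mmp-1+ cells the share was 15.6% and 16.4% in replicates 1 and 3 and 8.33% in replicate 2, a library that stood apart within its group. In RNA from sorted cells, fewer cells of a type within the gate and less RNA per cell cannot be told apart.

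**Figure D4:**
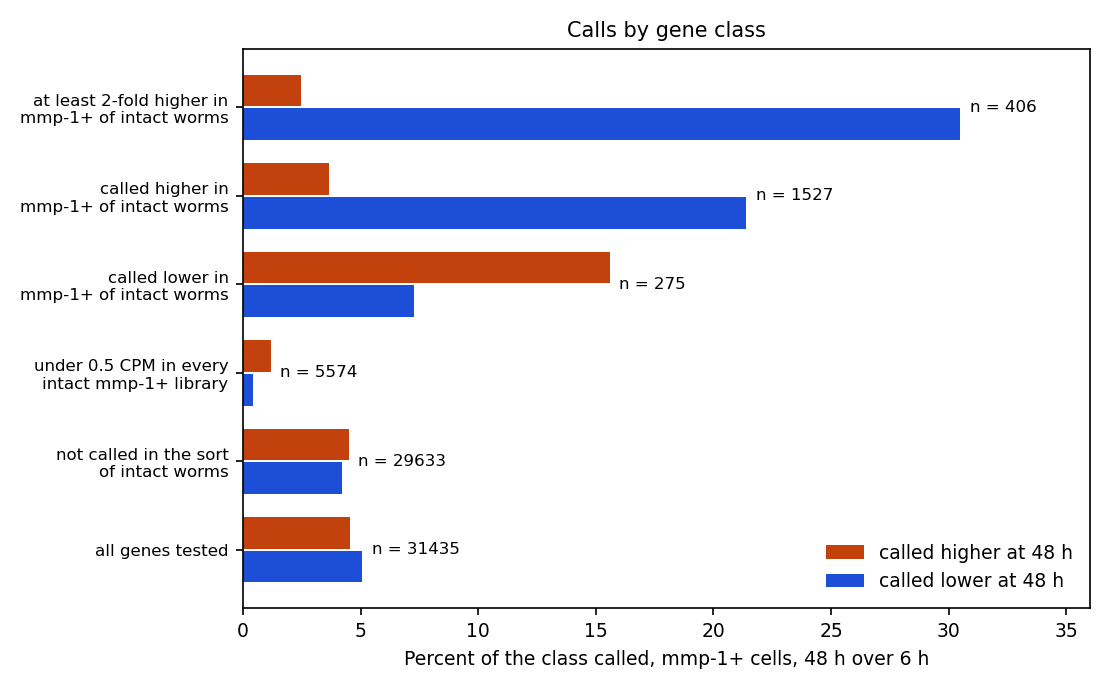
Percent of the genes of each class called higher (orange) or lower (blue) at 48 h than at 6 h in mmp-1+ cells, with the number of genes tested in the class. The class that exceeded mmp-1- cells by 2-fold or more in intact worms has 2.46% called higher and 30.5% called lower, against 4.56% and 5.07% of all genes tested.

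In mmp-1- cells the same 406 genes were also called lower more often than higher. There 62 were called lower at 48 h and 5 higher (15.3% and 1.23%, beside 5.18% and 4.58% of all genes tested in these cells), with a median log2 fold change of -0.33. The test of the difference between the populations called 5 of the 406 genes (1.23%, beside 0.0986% of all genes tested), all of them with the more negative change in mmp-1+ cells. Among all 1527 genes called higher in the intact sort it went both ways, with 6 more positive and 5 more negative changes. Of the 6 genes most specific to mmp-1+ cells of intact worms, none was called, and 3 were called in a fit of the 6 compared libraries alone, which has its own filter, scaling and spread. SMED30019930, with a log2 ratio of 6.23 (SE 1.27, adjusted p 0.00355) for mmp-1+ over mmp-1- cells in intact worms, stood at 19920.2, 29238 and 21829 CPM at 48 h, against 43582, 31930.4 and 35870.3 CPM at 6 h. Every 48 h library lay below every 6 h library, yet the log2 fold change of -0.65 (SE 1.01, adjusted p 0.782) was not called. Its mmp-1- libraries, which shared the estimate of the spread, ranged over 54.1 to 650.0 CPM at 48 h and 452 to 1492 CPM at 6 h. The 6 compared libraries alone gave an adjusted p of 0.0267 for the same change, and the 9 mmp-1+ libraries alone gave 0.125.

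The other 5 genes with the highest such ratios were all no lower than 4 in average log2 CPM. SMED30003191 stood at 469.7, 652 and 533 CPM at 48 h, against 814, 721 and 731 CPM at 6 h, a log2 fold change of -0.45 (SE 0.95, adjusted p 0.847). SMED30002195 stood at 286, 445 and 281 CPM at 48 h, against 631, 437 and 516 CPM at 6 h, a log2 fold change of -0.65 (SE 0.67, adjusted p 0.641). SMED30019680 stood at 21001, 29840.1 and 22448 CPM at 48 h, against 39223, 30128 and 32979.5 CPM at 6 h, a log2 fold change of -0.48 (SE 0.83, adjusted p 0.807). These 48 h libraries lay below the 6 h libraries except for replicate 2 of SMED30002195, which reached into the 6 h range. SMED30007813 overlapped between the times, at 19582, 25694 and 16689 CPM at 48 h and 30078, 21812 and 25101 CPM at 6 h, with -0.31 (SE 0.94, adjusted p 0.896). SMED30023225 had the opposite sign, at 309, 493 and 373 CPM at 48 h and 346, 274 and 293 CPM at 6 h, with 0.36 (SE 0.62, adjusted p 0.804). On the 6 compared libraries alone SMED30003191 and SMED30002195 were called, at adjusted p of 0.0319 and 0.0299, and the other 3 were not.

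The 10 most abundant genes of intact mmp-1+ cells gave no call either, although several shifted by more CPM than any called gene. SMED30032887, the most abundant, stood at 132451, 124386 and 130301 CPM at 48 h, against 142884, 148046 and 131606 CPM at 6 h, a log2 fold change of -0.13 (SE 0.14, adjusted p 0.664). Its lowest 6 h library was below its highest 48 h library. SMED30027845 stood at 68667, 77771 and 54494 CPM at 48 h, against 96223, 72013 and 81939.6 CPM at 6 h, with -0.32 (SE 0.18, adjusted p 0.337). SMED30032663 overlapped between the times, at 25927 to 34742 CPM at 48 h and 23747 to 33981 CPM at 6 h, with 0.05 (SE 0.22, adjusted p 0.938). SMED30007704 did not overlap, at 17739 to 18336 CPM at 48 h and 20390.4 to 22174 CPM at 6 h, with -0.23 (SE 0.13, adjusted p 0.307). SMED30019357 and SMED30005188, both members of the sort class, stood at 13890.2 to 20275 CPM and 11836 to 19082 CPM at 48 h, against 21641 to 29500.0 CPM and 19302 to 23861 CPM at 6 h. Their log2 fold changes were -0.63 (SE 0.46, adjusted p 0.477) and -0.52 (SE 0.49, adjusted p 0.596). SMED30034930 had the highest value of the 10, at 10695, 12388 and 9584 CPM at 48 h, against 8417, 7038 and 7344 CPM at 6 h, with 0.52 (SE 0.33, adjusted p 0.398). In fits of the 6 compared libraries alone SMED30034930 and SMED30019357 were called, at adjusted p of 0.0168 and 0.0317, and the 9 mmp-1+ libraries alone gave 0.0128 and 0.148. The remaining 3 of the 10 were the sort genes SMED30019930, SMED30019680 and SMED30007813 given above.

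Calls were rarer among scarce genes, where the SE was larger. Of 13955 genes with an average log2 CPM under 1, 248 were higher and 181 lower (3.07% called, median SE 0.37). Of 10013 genes between 1 and 4, 548 were higher and 645 lower (11.9%, median SE 0.15). Of 6608 genes between 4 and 7, 573 were higher and 684 lower (19.02%, median SE 0.0993), and of 859 genes at 7 or above, 63 were higher and 85 lower (17.2%, median SE 0.11). A scarce gene therefore needed a larger fold change to be called. Of the 5574 genes under 0.5 CPM in every intact mmp-1+ library, 66 were called higher at 48 h and 23 lower (1.18% and 0.413%).

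Much of the change was found in mmp-1- cells as well, in libraries other than those of the mmp-1+ comparison. There 3066 genes were called (9.75%), 1439 higher (4.58%) and 1627 lower (5.18%), and 1824 genes were called in both populations. These shared calls were 60.3% of the mmp-1+ calls and 59.5% of the mmp-1- calls. In both populations 854 were higher and 966 lower, and 4 had opposite signs. Without 48 h replicate 1 of the mmp-1- cells their calls numbered 1951. Of the 349 falls of at least 2-fold in mmp-1+ cells, 241 were called lower in mmp-1- cells (69.1%). The 349 had a median log2 fold change of -1.56 among mmp-1+ libraries and of -1.35 among mmp-1- libraries, where the median of all genes was -0.02. Of the 290 rises of at least 2-fold, 193 were called higher in mmp-1- cells (66.6%), and the 290 had medians of 1.43 and 1.10. Since the mmp-1+ values chose these genes, that choice raises the size of their medians in mmp-1+ cells. The mmp-1+ and mmp-1- libraries of a time may come from the same worms, which the labels do not state.

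Some named genes changed by similar amounts in both populations. SMED30002813 stood at 78.4, 72.4 and 56.5 CPM at 48 h and 16.5, 18.4 and 17.2 CPM at 6 h among mmp-1- libraries, close to its mmp-1+ values, with 1.99 (SE 0.18, adjusted p 4.63e-07). SMED30014570 stood at 1.77, 5.10 and 2.07 CPM at 48 h and 269.7, 39.6 and 86.9 CPM at 6 h, with -5.47 (SE 0.71, adjusted p 3.67e-05). SMED30026864 stood at 5.21, 5.85 and 6.25 CPM at 48 h and 0.0606, 0.128 and 0.411 CPM at 6 h, with 4.86 (SE 0.56, adjusted p 9.03e-06). In all 3 the times were apart in both populations. The differences between populations were not called, at 0.19 (SE 0.24, adjusted p 0.9999) for SMED30002813, 0.08 (SE 0.87, adjusted p 0.9999) for SMED30014570 and -0.10 (SE 0.93, adjusted p 0.9999) for SMED30026864. SMED30035615 and SMED30018904 were called in mmp-1+ cells alone, at -3.08 (SE 1.12, adjusted p 0.0921) and -2.10 (SE 0.78, adjusted p 0.0995) among mmp-1- libraries, and their difference between populations was not called (adjusted p 0.9999 in each).

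A direct test asked for which genes the change at 48 h over 6 h differed between the populations. It called 31 of 31435 genes (0.0986%), 26 with the more positive change in mmp-1+ cells (0.0827%) and 5 with the more negative one (0.0159%). At an unadjusted p under 0.05 there were 1158 genes (3.68%), where the comparison within mmp-1+ cells had 6994 (22.2%), and DESeq2 called 60 and limma with voom 24. A share of 3.68% is under what this threshold passes with no difference, so the few calls do not show that the populations changed alike. With a block for every replicate of every time, 1608 genes had an unadjusted p under 0.05. Of the 26, 22 rose in mmp-1+ cells. Of those 22, 14 were not called among mmp-1- libraries, 5 were called higher and 3 lower. The other 4 of the 26 were called lower in each population, with the smaller fall in mmp-1+ cells. Leaving out 1 library gave 17 to 33 calls, with 17 without replicate 1 of 6 h mmp-1+ or of 6 h mmp-1- cells and 18 without 48 h mmp-1+ replicate 2.

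**Figure D5:**
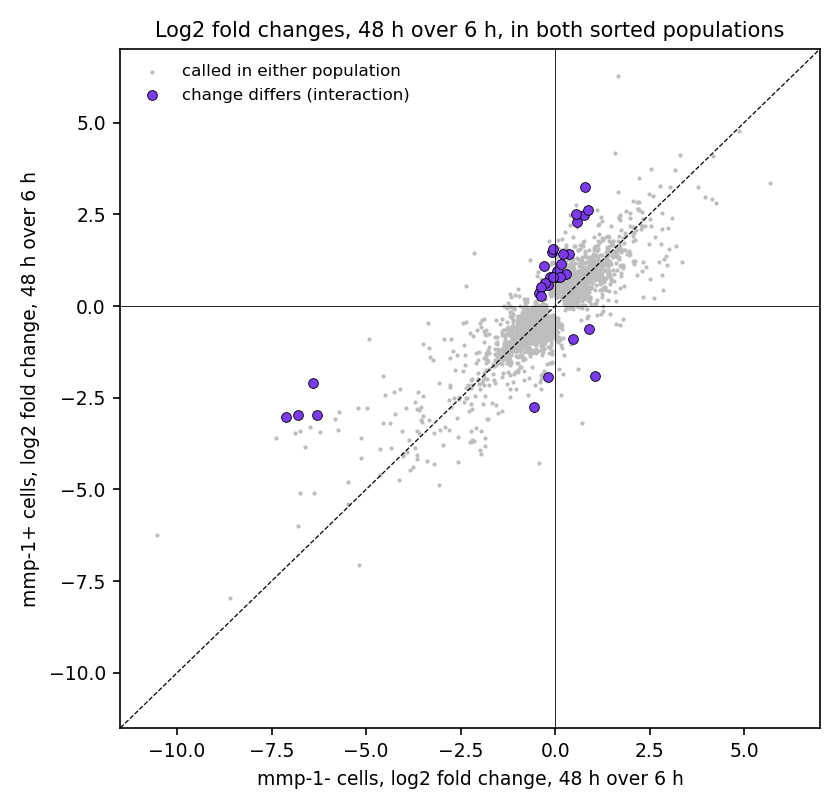
Log2 fold change at 48 h over 6 h in mmp-1+ cells (vertical) against that in mmp-1- cells (horizontal), for genes called in either population. The dashed line marks equal change, and purple points are the 31 genes whose change differed between the populations; most of them lie above the line, with a rise in mmp-1+ cells.

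SMED30034953 and SMED30007001, which led the rises, were among the 26. SMED30034953 stood at 33.8, 34.0 and 27.1 CPM at 48 h and 16.8, 17.3 and 17.6 CPM at 6 h among mmp-1- libraries, a log2 fold change of 0.88 (SE 0.16, adjusted p 0.00163). The difference between populations was 1.74 (SE 0.23, adjusted p 0.00176). SMED30007001 stood at 27.1, 27.7 and 24.5 CPM at 48 h and 16.3, 18.6 and 18.02 CPM at 6 h among mmp-1- libraries, a log2 fold change of 0.58 (SE 0.15, adjusted p 0.0198), with a difference of 1.70 (SE 0.22, adjusted p 0.00147). Both genes rose in both populations, and more in mmp-1+ cells. The 3 genes with the smallest p of this test, chosen after their values were seen, rose in mmp-1+ cells and were not called in mmp-1- cells. SMED30034470 stood at 149.6, 224 and 204 CPM at 48 h, against 59.9, 71.5 and 63.6 CPM at 6 h, among mmp-1+ libraries, and at 39.8, 39.0 and 39.9 CPM at 48 h and 37.8, 44.7 and 39.8 CPM at 6 h among mmp-1- libraries. Its difference was 1.61 (SE 0.18, adjusted p 3.04e-04). SMED30008911 stood at 536, 788 and 653 CPM at 48 h, against 253, 219.6 and 246 CPM at 6 h, among mmp-1+ libraries, and at 209.9, 201 and 220.5 CPM at 48 h and 231, 193 and 242 CPM at 6 h among mmp-1- libraries. Its difference was 1.54 (SE 0.17, adjusted p 2.23e-04). SMED30034946 stood at 61.2, 79.0 and 72.6 CPM at 48 h, against 27.1, 26.4 and 26.6 CPM at 6 h, among mmp-1+ libraries, and at 27.2, 25.1 and 26.0 CPM at 48 h and 22.3, 21.6 and 24.5 CPM at 6 h among mmp-1- libraries, with a difference of 1.21 (SE 0.13, adjusted p 2.23e-04). In each of these 3 the populations were closer at 6 h than at 48 h, when the mmp-1+ libraries stood well above the mmp-1- libraries. All 5 of these differences were called in each of the 20 alternatives.

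The largest positive differences belonged to genes that all but vanished from mmp-1- cells while some RNA stayed in mmp-1+ cells. SMED30013562 stood at 4.16, 4.62 and 1.29 CPM at 48 h, against 14.5, 16.6 and 12.2 CPM at 6 h, among mmp-1+ libraries, and at 0.284, 0.285 and 0.253 CPM at 48 h and 29.4, 19.4 and 21.0 CPM at 6 h among mmp-1- libraries. The log2 fold changes were -2.11 (SE 0.37, adjusted p 8.25e-04) for mmp-1+ cells and -6.40 (SE 0.49, adjusted p 8.99e-08) for mmp-1- cells, a difference of 4.29 (SE 0.62, adjusted p 0.00422). SMED30034869 stood at 6.24, 4.16 and 1.40 CPM at 48 h, against 31.2, 45.0 and 19.95 CPM at 6 h, among mmp-1+ libraries, and at 0.253, 0.150 and 0.183 CPM at 48 h and 43.0, 19.8 and 19.4 CPM at 6 h among mmp-1- libraries, a difference of 4.11 (SE 0.71, adjusted p 0.0180). SMED30028271 stood at 3.93, 3.85 and 0.721 CPM at 48 h, against 21.7, 28.7 and 16.1 CPM at 6 h, among mmp-1+ libraries, and at 0.142, 0.195 and 0.239 CPM at 48 h and 29.9, 18.5 and 16.7 CPM at 6 h among mmp-1- libraries, a difference of 3.83 (SE 0.67, adjusted p 0.0191). In all 3 the 48 h mmp-1+ replicate 3 was the lowest of its group, and every 48 h mmp-1- library was below it. SMED30005177, the other gene of this kind, was named after its values were seen and had mean levels of 41.4 CPM at 48 h and 322 CPM at 6 h among mmp-1+ libraries, and 3.62 and 287 CPM in mmp-1- cells. Its difference was 3.35 (SE 0.61, adjusted p 0.0272). limma with voom called none of the differences of SMED30013562, SMED30034869 and SMED30028271, and those of SMED30034869 and SMED30028271 were also lost without several single libraries.

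All 5 genes with the more negative change in mmp-1+ cells were called higher in mmp-1+ than in mmp-1- cells of intact worms. Of the 26 genes with the more positive change, 6 were called higher in that sort too, and 20 were not called. SMED30020197 stood at 1.71, 2.30 and 1.75 CPM at 48 h, against 13.4, 12.3 and 12.8 CPM at 6 h, among mmp-1+ libraries, a log2 fold change of -2.75 (SE 0.22, adjusted p 1.11e-07). In mmp-1- cells it stood at 1.29, 0.780 and 1.44 CPM at 48 h and 1.58, 1.76 and 1.86 CPM at 6 h, and the difference was -2.18 (SE 0.32, adjusted p 0.00422). The mmp-1+ libraries were thus much nearer to the mmp-1- libraries at 48 h than at 6 h. SMED30032966 stood at 3.95, 6.13 and 5.03 CPM at 48 h, against 9.96, 9.30 and 8.85 CPM at 6 h, among mmp-1+ libraries, and at 4.69, 3.62 and 5.11 CPM at 48 h and 2.94, 2.99 and 3.82 CPM at 6 h among mmp-1- libraries, a difference of -1.36 (SE 0.25, adjusted p 0.0343). SMED30002801 stood at 30.2, 46.1 and 38.6 CPM at 48 h, against 63.2, 57.8 and 56.8 CPM at 6 h, among mmp-1+ libraries, a log2 fold change of -0.63 (SE 0.18, adjusted p 0.0306). In mmp-1- cells it stood at 16.8, 16.5 and 15.7 CPM at 48 h and 8.92, 7.84 and 9.42 CPM at 6 h, a log2 fold change of 0.90 (SE 0.19, adjusted p 0.00361), and the difference was -1.53 (SE 0.26, adjusted p 0.0162). It was the single gene of the 5 called in opposite directions, but its fall in mmp-1+ cells was lost in 6 of the 15 alternatives. The other 2 genes, named because there were only 5, were SMED30030033 with a difference of -1.73 (SE 0.30, adjusted p 0.0191) and SMED30020079 with -2.97 (SE 0.52, adjusted p 0.0203). The difference of SMED30020197 was called in all 20 alternatives, that of SMED30032966 was lost in 10, and that of SMED30002801 was lost in 3, without 6 h mmp-1- replicate 1 or 2 or 6 h mmp-1+ replicate 1.

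The tissue sections gave a view from other samples. Each time was 1 frozen block with 2 adjacent sections, and each section also held an intact animal, so no test was made. Over the whole section, 914 of the genes called higher in mmp-1+ cells had at least 200 UMIs (unique molecular identifiers, tags that mark single RNA molecules) over the 4 sections. Of these, 92.8% were higher in the 48 h than in the 6 h sections, beside 70.6% of the 11258 genes tested with that many UMIs. Of the 1036 genes called lower, 60.9% were lower in the 48 h sections, beside 29.4% of those 11258. For falls of at least 2-fold the share was 87.7% of 146 genes, with a median log2 ratio of -1.13, where the genes tested had a median of 0.27. The sections held 21234845 and 18695274 UMIs at 48 h and 10863941 and 13792997 at 6 h.

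Several named genes followed the sorted cells in the sections and some did not. SMED30030464 had 127 (122 to 132) and 239 (232 to 246) CPM in the 48 h sections, against 5.80 (4.46 to 7.42) and 6.60 (5.31 to 8.10) CPM in the 6 h sections, with 95% Poisson intervals that cover counting error only. SMED30026864 had 21.6 (19.6 to 23.6) and 16.7 (14.9 to 18.7) CPM at 48 h, against 0.0921 (0.00233 to 0.513) and 0.145 (0.0176 to 0.524) CPM at 6 h, where 1 and 2 UMIs were counted. SMED30034953 had 163 (158 to 169) and 133 (128 to 138) CPM at 48 h, against 49.7 (45.6 to 54.1) and 55.9 (52.0 to 60.0) CPM at 6 h. These 3 rises were present in UMIs summed over each section, and where in the section they lay was not examined. SMED30022886 had 0.235 and 0.267 CPM at 48 h, against 9.21 and 30.4 CPM at 6 h. SMED30002225 had 0.659 and 0.963 CPM at 48 h, against 13.8 and 37.8 CPM at 6 h. SMED30014570 had 22.8 and 51.4 CPM at 48 h, against 206 and 140.0 CPM at 6 h. The falls of SMED30002225 and SMED30014570 were smaller in the sections than in mmp-1+ cells, and all 3 genes were lower at 48 h. SMED30028552 had the opposite sign, with 9.32 (8.07 to 10.7) and 13.4 (11.8 to 15.2) CPM at 48 h, against 16.02 (13.7 to 18.6) and 26.6 (23.9 to 29.5) CPM at 6 h. Of the 4 called genes with the largest decreases in mean CPM, 3 were higher in the 48 h sections. Section CPM are scaled by total UMIs, and the genes tested with at least 200 UMIs had a median log2 ratio of 0.27 there. A small rise in the sections is therefore close to that of the typical gene, whereas the falls in sorted cells are relative to TMM scaling. SMED30002262 had 2736 and 3747 CPM at 48 h, against 2551 and 2433 CPM at 6 h. SMED30021545 had 9116 and 9385 CPM, against 6891 and 8637 CPM, and SMED30020317 had 1735 and 2165 CPM, against 1538 and 1275 CPM. SMED30018686 was lower at 48 h there too, with 109 and 268 CPM, against 651 and 711 CPM at 6 h. SMED30008911 was lower at 48 h, with 347 and 368 CPM, against 422 and 513 CPM at 6 h, whereas it was higher at 48 h in mmp-1+ cells. A section mixes all cells of the fragments with those of the intact animal, and the share of either was not measured here.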

How the data were processed

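Libraries of sorted cells were made with SMART-Seq v4 (10 PCR cycles) and Nextera XT (12 cycles), without strand, per the labels' protocols. The deposited table holds raw read counts for 36035 gene identifiers. Its categories for unmapped (12.1% to 16.1%) and multimapping reads (5.67% to 9.21%) name no gene and entered neither library sizes nor tests. They have the form STAR writes, and the submitters' processing notes name STAR 2.7.3a and RSEM without a role. The sections were deposited by the authors as raw UMI counts per bead, with no aligner or reference named in the labels. They were summed over all beads, and log2 ratios used a pseudocount of 1 CPM.

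Counts were tested with edgeR 4.0.16 in R 4.3.3. filterByExpr left 31435 genes, TMM scaled the libraries, a model of 6 group means was fitted to all 18, and p-values from glmQLFTest were adjusted by Benjamini-Hochberg over all genes tested. The SE is the absolute log2 fold change divided by the square root of F. CPM are not divided by transcript length. The interaction is the change in mmp-1+ minus that in mmp-1- cells. The code was tested on simulated data. Alternatives were DESeq2 1.42.0, limma 3.58.1 with voom, other scalings and filters, fits of fewer libraries, a replicate term and the removal of each library.

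Genes were named by rule: the 8 steepest rises and 8 steepest falls among called, non-overlapping genes from 4 in average log2 CPM; the 4 largest increases and 4 largest decreases in mean CPM among called genes; called genes under 0.5 CPM at one time and over 2 CPM at the other; the 10 most abundant and the 6 most sort-specific genes of intact mmp-1+ cells; and the 3 highest and 3 lowest called interactions from 2 in average log2 CPM. The comparison, rules and classes were chosen with earlier results of these data known. Reads carried no molecular identifiers, so they are not independent molecules, and p-values rest only on the spread between the 3 replicates within groups. In the model of group means this spread was estimated over all sorted-cell groups together, the intact and mmp-1- groups included. Replicates differed by more than counting error, at a chi-square per gene of 12.4 to 33.7, and none was counted as a duplicate. Without strand, overlapping and antisense genes cannot be told apart.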

Additional observations from a re-analysis of the deposited data

Results flagged for a closer look

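For 11 named genes the change at 48 h over 6 h differed between mmp-1+ and mmp-1- cells by the interaction test of edgeR at an adjusted p under 0.05. The change was more positive in mmp-1+ cells, with differences on the log2 scale, by 1.74 for SMED30034953, 1.70 for SMED30007001, 1.61 for SMED30034470, 1.54 for SMED30008911 and 1.21 for SMED30034946. All of these were higher at 48 h in mmp-1+ cells. The fall was smaller in mmp-1+ cells for SMED30013562, SMED30034869 and SMED30028271, with differences of 4.29, 4.11 and 3.83. The change was more negative in mmp-1+ cells for SMED30020197, SMED30002801 and SMED30032966, with differences of -2.18, -1.53 and -1.36. Adjusted p-values lay between 2.23e-04 and 0.0343, with 3 libraries in each group. Of the 20 alternatives, leaving out each library among them, the call was lost in 10 for SMED30032966, in 9 for SMED30028271, in 7 for SMED30034869, in 3 for SMED30002801 and in 1 for SMED30013562. The other 6 were called in all 20.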

How the results depend on the processing

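The count of calls in mmp-1+ cells was 2754 to 3600 in the alternatives that kept all 6 libraries, and 1870 to 2296 with 1 left out. Leaving out 1 library gave 893 to 1095 rises and 976 to 1204 falls, 1951 to 2589 calls in mmp-1- cells, and 17 to 33 interactions (14 to 30 positive, 1 to 5 negative). Fewer libraries make each of these fits weaker. Total-count scaling gave 2580 rises and 808 falls. DESeq2 gave 60 interactions, 48 positive and 12 negative. The tail fragments alone gave 12 negative interactions and limma with voom 3. For these differences between tools the cause was not tested.

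With 1 library left out, the 1527 sort genes had 25 to 55 rises and 147 to 309 falls, and the 406 had 3 to 13 rises and 55 to 123 falls. The 275 genes lower in the sort had 8 to 15 falls. Rises and falls were 144 to 185 and 92 to 162 among genes with an average log2 CPM under 1, and 343 to 423 and 389 to 494 between 1 and 4. They were 345 to 456 and 442 to 560 between 4 and 7, 40 to 55 and 51 to 69 at 7 or above, and 33 to 46 and 10 to 17 among genes near absent in intact worms. With total-count scaling the 1527 genes had 108 rises and 208 falls, the 406 had 18 rises, the 275 had 7 falls and the near-absent genes 14 falls. By abundance from low to high, that scaling gave falls of 118, 325, 318 and 47, and rises of 992, 1099 and 128 in the upper 3 classes. The 6 compared libraries alone gave 20 rises and 198 falls among the 406 genes. This fit of the classes and that of the 9 mmp-1+ libraries were added after seeing the data. Leaving out a section moved the share of rises higher in the sections to between 90.2% and 93.7%.

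Of the 36 named genes called in mmp-1+ cells, 26 were called under each of the 15 alternatives and 10 were lost under 1 or more, with no change of direction. The calls of SMED30022886 and SMED30020266 rest on 48 h replicates 1 and 3, as stated with their values.

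Same-numbered 48 h and 6 h mmp-1+ libraries deviated together with r of 0.106, 0.009 and 0.0788 over 7467 genes. Such low values cannot show whether these samples share more than a number. With the replicate number as a replicate block, 3026 genes were called in mmp-1+ cells, 3378 in the compared libraries alone and 33 interactions. A block for every replicate of every time gave 38 interactions, 28 of the 31 among them, and that of SMED30032966 was not called under it. Each 48 h mmp-1+ library correlated best with a 6 h mmp-1+ library of another number, at r of 0.1495, 0.152 and 0.209 for 48 h replicates 1, 2 and 3. Same-numbered mmp-1+ and mmp-1- libraries of a time gave r of 0.246, 0.223 and 0.279 at 48 h and 0.4998, 0.620 and 0.0928 at 6 h. Every mmp-1+ library correlated best with the mmp-1- library of its number, a hint from the data and not the design, and all but 6 h mmp-1- replicate 3 did so in turn.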
